A study of Rattus norvegicus with 129 samples.

Results

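The genes described here are 33 rat genes of the complement and coagulation systems, measured in liver in 5 exposure studies. They were chosen as a list of blood cascade genes made mainly by the liver, and every array probe set that the platform annotation assigned to one of them was read. Of the 33 genes, 27 could be read on at least 1 of the 3 array types: 17 of 4736 annotated genes on the smallest array, 21 of 10411 on the middle one and 27 of 14217 on the largest. F7, F11 and F13b had no probe set, and C2, Cfb and Kng1 were on probe sets that name several genes, so these 6 genes were not read singly.

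The series holds 129 arrays, 1 per rat, of which 128 were used, as vehicle rat 1003 was left out. On the smallest array, male and female Sprague-Dawley rats received by gavage phenobarbital (PB) at 100 mg/kg, pregnenolone-16α-carbonitrile (PCN) at 100 mg/kg or methylcellulose with Tween 80. Some rats had a single dose and were killed 6 or 24 h later, and others had 5 daily doses and were killed 24 h after the fifth, which makes 18 groups of 5 rats (4 in the male vehicle group at 6 h after the exclusion), and the labels give no age for them. The same array held female Sprague Dawley rats, 4 weeks old, on control diet or on a diet with 600 mg/kg 3H-1,2-dithiole-3-thione (D3T), 4 rats each, and female Sprague-Dawley rats, 60 days old, given Tween-20 vehicle or perfluorooctane sulfonate (PFOS) at 5 mg/kg daily for 3 weeks, 2 rats each. The largest array held male Sprague-Dawley rats, 10 weeks old, gavaged with Alkamuls vehicle, the ammonium salt of perfluorooctanoic acid (PFOA) at 20 mg/kg/day or the potassium salt of PFOS at 10 mg/kg/day, 3 rats each, for a duration that the labels leave out. The middle array held male Wistar Hanover rats, with no age given, on carboxymethyl cellulose vehicle or on a daily 60 mg/kg of Wy-14643, with livers from days 1, 3 and 7 and 3 rats per group. The label of Wy-14643 rat 06, a rat of the 3-day group, states no dose.

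Complement is a set of plasma proteins that mark microbes and damaged cells. Its classical and lectin branches start with recognition proteins and the proteases bound to them, meet at C3, and end with C5 to C9, which assemble a pore in the target membrane. Coagulation is a parallel chain of proteases that ends in thrombin and fibrin, held in check by protein C, protein S and serpins, and followed by clot removal through plasmin. Hepatocytes secrete most of these proteins. In whole liver RNA, fewer cells of a type and less RNA per cell cannot be told apart. Phenobarbital activates the receptor CAR, PCN the rat receptor PXR, Wy-14643 the receptor PPARα, and D3T the NRF2 pathway. PFOA and PFOS are perfluorinated surfactants that differ in the acid group, a carboxylate in PFOA and a sulfonate in PFOS.

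Levels are given as log2 of the deposited intensity plus 16, so that the lowest possible level is 4. A change is the mean of the treated rats minus that of their own controls on this log2 scale, with its standard error (SE) from limma. A gene passed where the Benjamini-Hochberg adjusted p of limma, over all probe sets of the array, was below 0.05. A level compares rats within a gene, not genes with each other. Array brightness differed between groups of some studies: the mean deposited intensity per array was 95.68 to 122.6 in the D3T rats against 293.9 to 436.3 in their controls, and 455 to 570.5 and 538.4 to 621.2 in Wy-14643 rats at 1 and 3 days against 368.2 to 435.1 and 321.1 to 454.9 in vehicle rats. In the D3T study brightness and diet cannot be told apart, nor can brightness and Wy-14643 at 1 and 3 days. At 7 days the ranges overlapped, with 412.1 to 588.6 in Wy-14643 and 352 to 492.3 in vehicle rats. Arrays were quantile normalised within each study, except those of the 3-week PFOS study. Hepatocyte markers were bright in every group (7 of 8 listed were measured), and the T cell gene Cd3d was at 0 in every rat on the smallest array. A 0 in 1 marker does not show that a cell type was absent. On that array the summed lymphocyte markers (6 of 8 listed were measured) ran from 119.7 to 428.87.

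The stretches of genome before the transcription start of C6, C4bpa, C8b and Klkb1 are shown because these genes gave some of the largest or most frequent falls and carry letters recognised by liver transcription factors. Holding a match was thus part of the choice. Sequences are from RefSeq on build GRCr8, 5′ to 3′ on the strand of the gene, and cover the 250 bases before the start. Capitals mark matches, on either strand, to CAAAGT of HNF4, GTTAAT of HNF1, TTGCNNAA of C/EBP and AGGTCA of nuclear receptors.
C6 (chr2:55573383-55573632, + strand): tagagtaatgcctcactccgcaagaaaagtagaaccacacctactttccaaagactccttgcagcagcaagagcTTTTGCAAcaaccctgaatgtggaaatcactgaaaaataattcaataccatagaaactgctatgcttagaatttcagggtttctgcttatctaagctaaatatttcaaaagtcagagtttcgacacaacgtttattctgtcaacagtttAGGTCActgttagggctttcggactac
C4bpa (chr13:44663472-44663721, - strand): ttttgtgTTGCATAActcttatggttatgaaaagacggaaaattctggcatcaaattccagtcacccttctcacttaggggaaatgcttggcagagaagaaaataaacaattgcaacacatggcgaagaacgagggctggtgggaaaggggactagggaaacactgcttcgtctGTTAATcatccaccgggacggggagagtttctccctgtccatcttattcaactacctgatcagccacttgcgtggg
C8b (chr5:124763864-124764113, + strand): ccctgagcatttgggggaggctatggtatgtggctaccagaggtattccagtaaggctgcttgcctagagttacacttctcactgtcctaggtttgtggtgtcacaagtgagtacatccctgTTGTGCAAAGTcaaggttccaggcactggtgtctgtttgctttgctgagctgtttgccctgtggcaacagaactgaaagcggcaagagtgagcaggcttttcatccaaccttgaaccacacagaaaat
Klkb1 (chr16:53690976-53691225, + strand): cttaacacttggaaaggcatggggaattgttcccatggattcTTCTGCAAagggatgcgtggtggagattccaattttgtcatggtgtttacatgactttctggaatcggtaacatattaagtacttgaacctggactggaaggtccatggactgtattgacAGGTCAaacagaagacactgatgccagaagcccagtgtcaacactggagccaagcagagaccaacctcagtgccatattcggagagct
C6 held a C/EBP match 176 to 169 bases before the start and a nuclear receptor match at 27 to 22 bases. C4bpa held a C/EBP match at 243 to 236 bases and an HNF1 match at 76 to 71 bases. In C8b the C/EBP match at 128 to 121 bases overlaps the HNF4 match at 123 to 118 bases. Klkb1 held a C/EBP match at 208 to 201 bases and a nuclear receptor match at 88 to 83 bases. Of the 27 genes read, 22 had an entry in the promoter table. C1s, C9, Serpind1, Cpb2 and Masp2 had none. HNF1 letters were in 7 of these 22 (31.8%) against 6.5% of all 33469 promoters of the table, C/EBP letters in 8 (36.4%) against 9.2%, nuclear receptor letters in 9 (40.9%) against 14.1%, and HNF4 letters in 2 (9.1%) against 12.9%. Among genes with an entry that fell at all times of Wy-14643, C4bpa, Masp1 and Serpinf2 held a match. Cfi, F5, Mbl1, Mbl2 and Pros1 held none. C5 and Serpinc1, which passed in no comparison with a control, also held matches. A match is a description of the sequence and does not show a bound site.

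Across the 19 comparisons of a treated group with its own control, 24 of the 27 genes fell in at least 1, and 3 (Mbl2, Proc and Pros1) rose in at least 1. C1s and C4bpa fell in 7 of 19 comparisons each, and C4bpb, C8b and Serpind1 in 5 each. For C1s and C4bpa these include all 3 times of the Wy-14643 study. Genes not on the smallest array were read in 5 or 2 comparisons alone, so counts do not rank the genes. Cfi and Cpb2 fell in 4 of 5, F5 and Serpinf2 in 3 of 5, and C6, C8a and F12 in 1 of 2. The share of all probe sets that fell in at least 1 comparison was not counted, so these counts have no background beside them. In single comparisons 0% to 13.1% of all probe sets passed in either direction. C5, Masp2 and Serpinc1 passed in none. C5, which starts the terminal pathway, was read in the PFOA and PFOS study alone and its changes were -0.78 and -0.37. Masp2, the protease that cleaves C4 in the lectin pathway, ranged from -0.62 with PFOS at 10 mg/kg to -0.18 with PFOA. It was read from another probe set in the Wy-14643 study. That probe set stood at 9.10, 9.29 and 10.59 in vehicle and at 8.82, 8.83 and 9.77 in PFOA rats. Serpinc1 (antithrombin) ranged from -0.22 to -0.02.

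**Figure D1:**
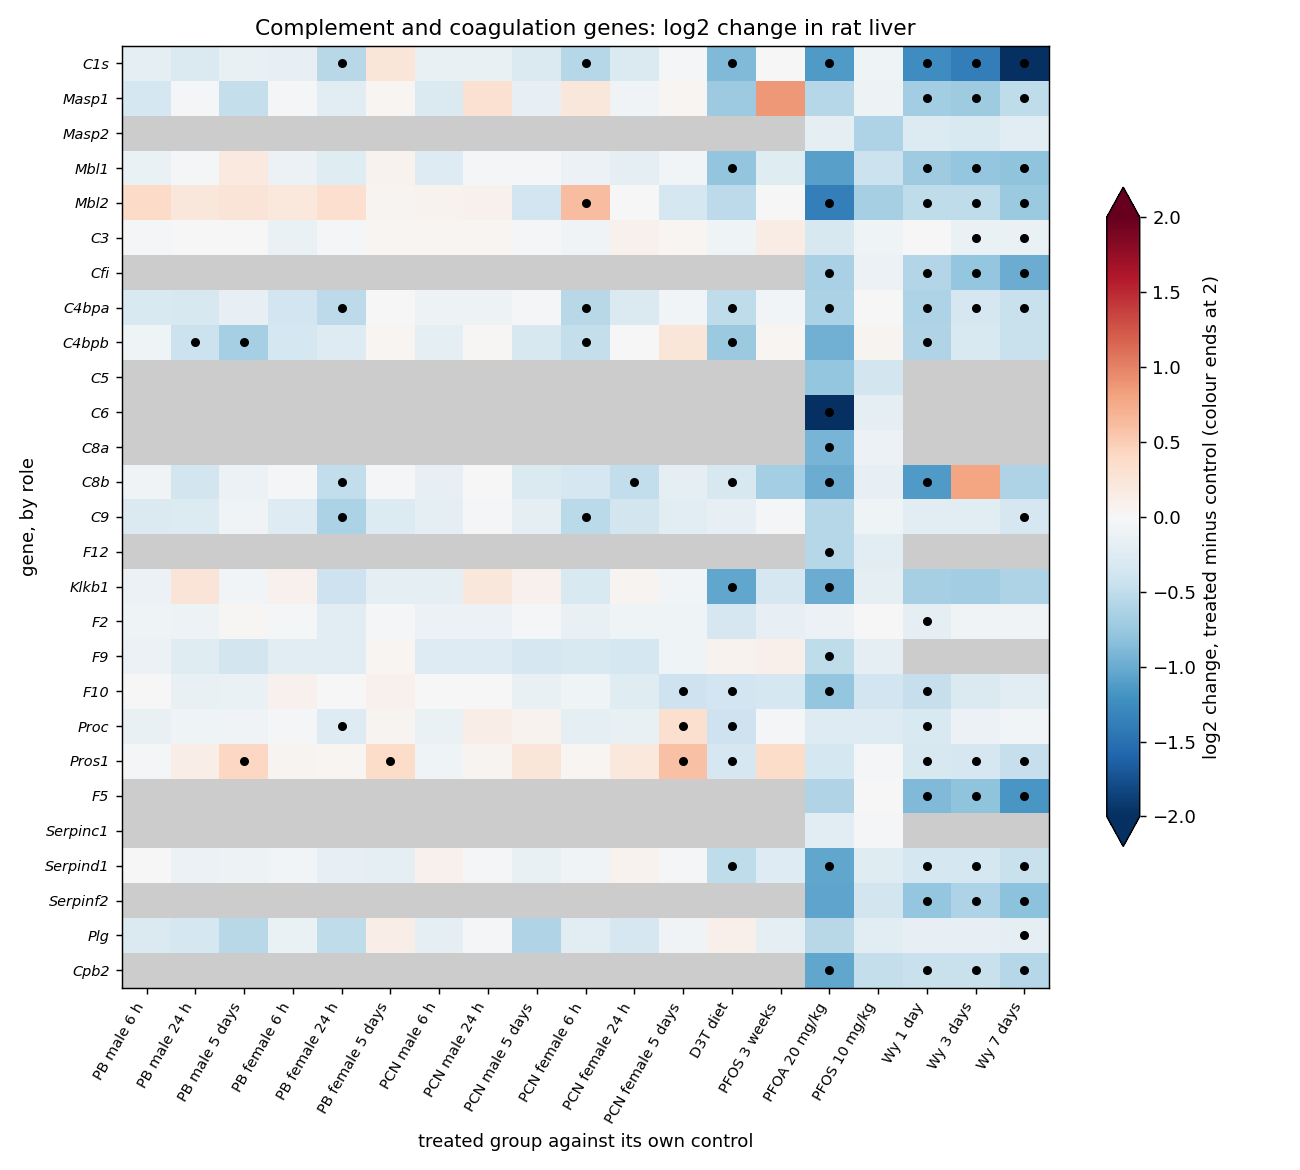
Log2 change of each gene read (vertical axis, ordered by role) in each treated group against its own control (horizontal axis), with grey where the array has no probe set for the gene and a black dot where the gene passed at an adjusted p under 0.05; colours end at a change of 2, which C6 with PFOA and C1s at 7 days of Wy-14643 exceed. The dots gather in the columns for D3T, PFOA and Wy-14643, where all marked changes are falls, and are few in the phenobarbital and PCN columns.

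PFOA at 20 mg/kg/day lowered 13 of the 27 genes and raised none, against 6.08% of all probe sets that passed in either direction and 2.84% that passed as lower. The change was negative in all 27, with a median of -0.65 against 0.00 over all probe sets, and 25 genes lay lower in every PFOA rat than in any vehicle rat, as did 12.5% of all probe sets. By role, 2 of 5 genes that start the classical and lectin branches fell, 2 of 4 for C3 and its regulators, 3 of 5 terminal complement genes, 2 of 2 contact system genes, 2 of 5 vitamin K dependent genes and 2 of 5 inhibitors and fibrinolysis genes. The cofactor F5 did not pass. The fall was 7.09-fold in C6.

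C6, a subunit of the terminal pore, stood at 9.84, 9.98 and 10.63 in vehicle rats, at 6.84, 7.19 and 7.95 in PFOA rats and at 9.37, 10.28 and 10.29 in PFOS rats. The PFOA rats lay below all others, and the PFOS rats overlapped with vehicle. The change with PFOA was -2.83 (SE 0.40, adjusted p = 0.0135 by limma, n = 3 and 3). Of the other subunits, C8b fell by 0.99 and C8a by 0.93. C9 (-0.57) and C5 (-0.78) did not pass, with adjusted p of 0.0869 and 0.137.

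Among the starters of the cascade, Mbl2, a mannose-binding lectin, stood at 12.49, 12.72 and 12.91 in vehicle rats, 11.18, 11.40 and 11.45 in PFOA rats and 11.85, 12.04 and 12.27 in PFOS rats. The PFOA rats were lowest and the PFOS rats lay between, with no overlap of the 3 groups. The PFOA change was -1.36 (SE 0.15, adjusted p = 0.00608), and a second Mbl2 probe set also fell, by 1.19. C1s, a protease of the classical pathway's C1 complex, stood at 12.50, 12.69 and 12.89 in vehicle, 11.24, 11.59 and 11.84 in PFOA and 12.30, 12.73 and 12.77 in PFOS rats. It fell by 1.14 (SE 0.20, adjusted p = 0.0257) with PFOA. Mbl1, the other mannose-binding lectin, had a change of -1.09 with an SE of 0.48 and did not pass (adjusted p = 0.269 by limma). Its vehicle rats stood at 10.25, 10.38 and 11.57, 1 of them well above the others. The brakes on C3 convertases followed: Cfi, the protease that inactivates C3b and C4b, fell by 0.65, and C4bpa, the chain of C4b-binding protein that serves as its cofactor, by 0.63.

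In the clotting and fibrinolysis genes, Cpb2, a carboxypeptidase that slows clot removal, stood at 12.48, 12.53 and 12.61 in vehicle, 11.34, 11.42 and 11.73 in PFOA and 11.99, 12.06 and 12.15 in PFOS rats. The PFOA change was -1.04 (SE 0.11, adjusted p = 0.00502). Serpind1, the thrombin inhibitor heparin cofactor II, stood at 12.57, 12.63 and 12.63 in vehicle, 11.22, 11.58 and 11.90 in PFOA and 12.27, 12.29 and 12.52 in PFOS rats, and also fell by 1.04 with PFOA (SE 0.17, adjusted p = 0.0204). The contact system proteases fell, Klkb1 (plasma prekallikrein) by 0.99 and F12 by 0.57. Of the vitamin K dependent factors, F10 fell by 0.77 and F9 by 0.51, whereas F2 (prothrombin) at -0.11, Proc (protein C) at -0.26 and Pros1 (protein S) at -0.35 did not pass. Serpinf2, the main plasmin inhibitor, was at -1.06 with an adjusted p of 0.0512. A probe set shared by Kng1 and 2 other kininogen genes fell by 1.16, and 1 of 4 probe sets shared by Cfb and C2 fell by 0.64.

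**Figure D2:**
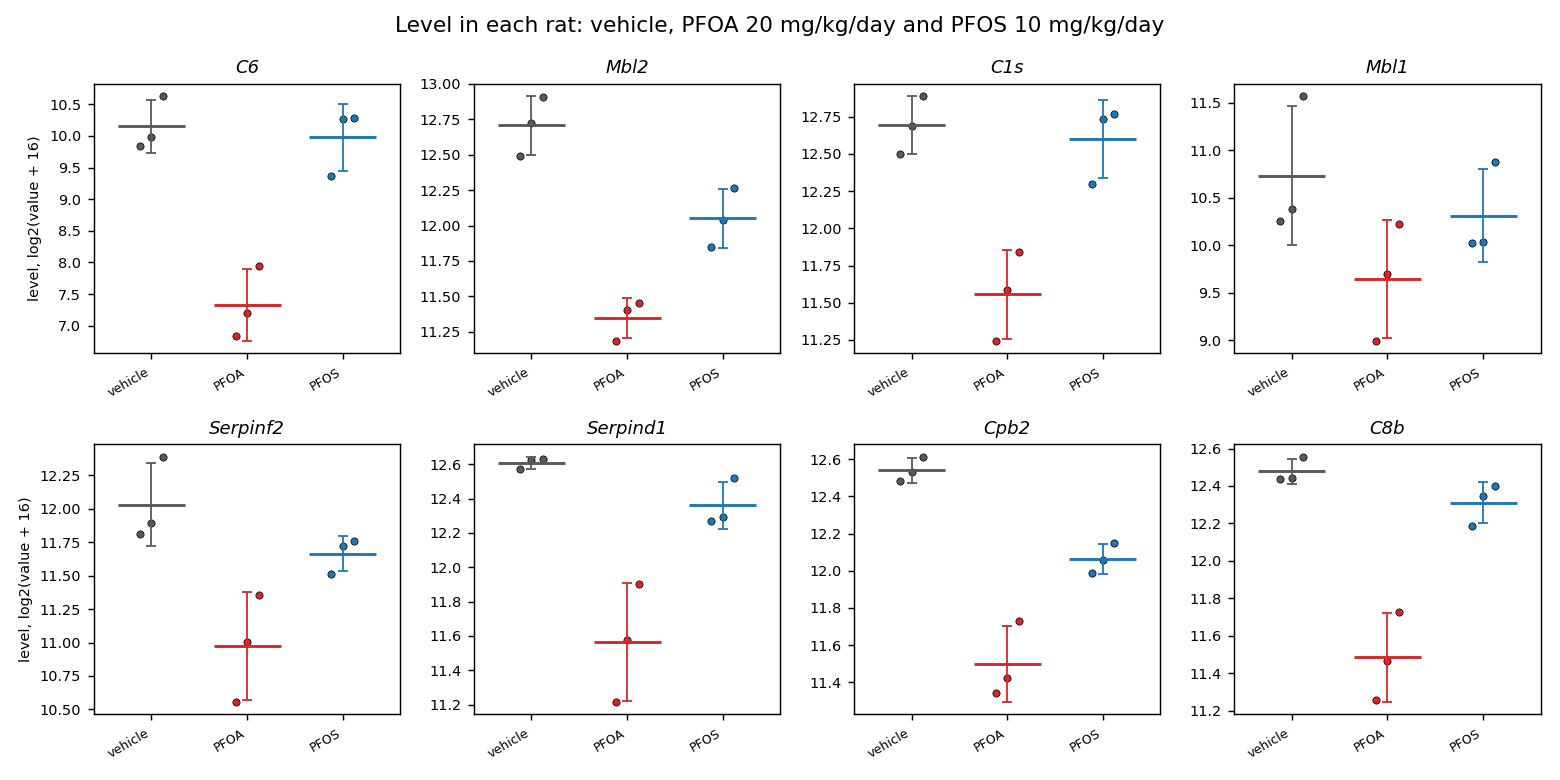
Level of 8 genes in each rat as log2(intensity + 16), with the group mean (bar) and SD (whisker), for vehicle, PFOA at 20 mg/kg/day and PFOS at 10 mg/kg/day, 3 rats each. The vertical axes do not start at 0 and differ between genes. C6 sits between 6.84 and 7.95 in PFOA rats and at 9.37 or above in all others.

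With PFOS at 10 mg/kg/day no gene of the 27 passed in limma, where 0.461% of all probe sets did, and 7 had an unadjusted p under 0.05, as did 3727 of 31042 probe sets. The change was negative in 24 genes with a median of -0.18, but in 4 genes with a median of 0.17 when arrays were scaled to a common median. Of all probe sets that passed, 61.5% were higher, and 77.8% with that scaling. The largest changes were in Mbl2 at -0.66 (95% interval -1.01 to -0.30), Masp2 at -0.62 and Cpb2 at -0.48. C6 was at -0.18, with an interval from -1.12 to 0.77, and C1s by -0.09, with one from -0.57 to 0.38. PFOA and PFOS were given at different doses and share their vehicle rats, so the values are given side by side and were not tested against each other. PFOS at 5 mg/kg for 3 weeks in females also gave no gene that passed, of 17, with 0% of all probe sets called in limma and no gene of the 17 at an unadjusted p under 0.05, where 421 of 8740 probe sets were. The median was -0.03. With 2 rats a group the 95% intervals were wide, from -3.21 to 2.49 for F10 and from -0.68 to 0.31 for Plg, so the lack of calls does not show that levels were alike. Masp1 spread over 4.19 and 5.18 in vehicle and 5.47 and 5.64 in PFOS rats, near the lowest level possible.

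Other genes changed beside these in the PFOA rats. Of the 44 further complement and coagulation genes listed, 37 were measured; C8g, Vtn and Vkorc1 fell by 0.73, 0.51 and 1.03, and Cd46 rose by 2.15. Vkorc1 makes the reduced vitamin K that the clotting factors need, and C8g is the third chain of C8. Of 22 acute phase and IL-6 genes measured, Apcs and Itih4 fell and none rose. Of all probe sets 6.08% passed in either direction, and 2.84% as lower. Cyp4a1 rose by 1.64 and Acot1 by 8.26, both classic PPARα targets. Dbp, a transcription factor driven by the circadian clock, rose by 3.94 with PFOA and by 4.16 with PFOS. Of the 10 macrophage markers measured only Cd14 passed, lower by 1.65, and their summed level was 5305.6 to 8316.6 in PFOA against 9622 to 12750 in vehicle rats. Of 6 endothelial markers Kdr and Tek fell, with sums of 1363.7 to 1939.3 against 3488.7 to 4179.5. Of 6 stellate cell markers Col3a1 fell, by 0.69, with sums of 1958.1 to 2787.8 against 2943 to 3791.5. Of 4 bile duct markers Epcam rose, by 1.28, with sums of 747.18 to 873.82 against 292.25 to 433.56. None of 7 lymphocyte markers passed, with sums of 212.24 to 380.34 against 422.78 to 476.4, and neither of 2 red blood cell markers did, with sums of 4330.9 to 6355.3 against 5101.7 to 5472.8. Of 7 hepatocyte markers Apoa1 and Cps1 fell, with sums of 45739 to 55123 against 59909 to 61558. None of these cell markers was at 0 in every rat, and their part, like that of Dbp, in the fall of the complement and coagulation genes was not tested.

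The PFOA count rests on few rats. It was 5, 6 or 7 genes when 1 of the 3 vehicle rats was left out, whichever rat this was, 8 with median scaling and 7 when only the PFOA and vehicle groups were fitted. C6, Cpb2 and Mbl2 passed in all of these and in every other alternative run, and all 27 changes remained negative without any single rat. The Klkb1 call was lost whichever of the 6 vehicle and PFOA rats was left out. Of these 6 runs, C8a, Cfi and F10 passed in 1 each, and C1s, C4bpa and Serpind1 in 2 each. F12 passed in 5, and C8b and F9 in all 6.

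Wy-14643 lowered 16 of 21 genes at 1 day, 12 at 3 days and 14 at 7 days, and raised none. The shares of all probe sets that passed were 11.4%, 10.8% and 13.1% in either direction, and 5.53%, 5.24% and 6.5% as lower. The median changes were -0.51, -0.34 and -0.47, against 0.00 over all probe sets. The same 11 genes passed at all 3 times: C1s, C4bpa, Cfi, Cpb2, F5, Masp1, Mbl1, Mbl2, Pros1, Serpind1 and Serpinf2. The share of all probe sets that passed at all 3 times was not counted. It can be at most the smallest share at 1 time, 10.8% in either direction and 5.24% as lower.

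C1s gave the largest fall at each time. It stood at 11.94, 11.98 and 12.10 in vehicle rats at 1 day, 11.77, 12.02 and 12.09 at 3 days and 11.84, 11.89 and 12.24 at 7 days. In Wy-14643 rats it stood at 10.56, 10.85 and 10.90, then 10.26, 10.66 and 10.83, then 9.46, 9.69 and 10.52. Every treated rat lay below every vehicle rat. The changes were -1.24, -1.38 and -2.10 (SE 0.23 each, adjusted p = 0.00426, 0.00252 and 9.9e-05 by limma, n = 3 and 3), a 4.28-fold fall at 7 days. C1r, the partner protease of C1s and not one of the 33 genes, fell by 1.10, 1.50 and 2.02 at the same times. Mbl1, Mbl2 and Masp1, the lectin branch, fell by 0.72, 0.51 and 0.70 at 1 day and by 0.81, 0.74 and 0.50 at 7 days. Masp1 did not pass when its probe sets were averaged, which brings in a probe set at or near the lowest level.

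F5, the cofactor of the prothrombin-cleaving complex, stood at 11.16, 11.24 and 11.29 in vehicle and 10.11, 10.27 and 10.65 in treated rats at 1 day, and at 11.13, 11.18 and 11.34 against 9.81, 10.06 and 10.27 at 7 days. It fell by 0.88, 0.80 and 1.17 (SE 0.16) at the 3 times. Cfi stood at 13.01, 13.12 and 13.21 in vehicle against 12.39, 12.59 and 12.60 in treated rats at 1 day, and at 12.97, 13.10 and 13.11 against 12.02, 12.05 and 12.14 at 7 days. Its falls were 0.59, 0.77 and 0.99 (SE 0.08), with no overlap of groups at any time. The difference between the 7-day and 1-day effects was tested for all genes: 1.89% of probe sets passed, and no gene of the 21 did, although 5 had an unadjusted p under 0.05, as did 2382 of 15866 probe sets, and 1 passed without Wy-14643 rat 12 of the 7-day group. For C1s it was -0.86 (SE 0.33, adjusted p = 0.229 by limma) and for Cfi -0.40 (SE 0.12, adjusted p = 0.121).

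Serpinf2 fell by 0.77, 0.61 and 0.83, Cpb2 by 0.45, 0.44 and 0.57, and Serpind1 by 0.36, 0.35 and 0.45 at 1, 3 and 7 days. At 1 day Serpinf2 stood at 12.34, 12.38 and 12.40 in vehicle rats and at 11.54, 11.62 and 11.65 in treated rats, well apart. Pros1 also fell at all times, by 0.32, 0.34 and 0.47. F2, F10, Proc and C4bpb, which codes for the chain of C4b-binding protein that holds protein S, fell at 1 day and did not pass at 3 or 7 days, with changes of -0.06, -0.20, -0.05 and -0.45 at 7 days. For F2, F10, Proc and C4bpb the 3-day effect was not shown to differ from the 1-day effect. The adjusted p was 0.191, 0.771, 0.614 and 0.745 by limma, in a test added after the values were seen. The 1-day C4bpb call was lost whichever of the 6 rats was left out, and F10 and Proc each passed in 2 of these 6 runs. C9 fell by 0.33 and Plg (plasminogen) by 0.17 at 7 days. Their changes at 1 and 3 days, -0.21 and -0.21 for C9 and -0.17 and -0.16 for Plg, did not pass, and the effects were not shown to differ between times. Klkb1 did not pass at any time, with changes from -0.69 to -0.62.

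C8b did not follow one direction. It stood at 12.52, 12.63 and 12.64 in vehicle and 10.52, 11.75 and 12.14 in treated rats at 1 day, and fell by 1.13 (adjusted p = 0.0486 by limma). At 3 days the vehicle rats were at 11.10, 11.12 and 11.88 and the treated rats at 12.08, 12.11 and 12.25, a change of 0.78 that did not pass (adjusted p = 0.171). Vehicle rats at 3 days lay below those at 1 day and at 7 days (12.12, 12.56 and 12.61). The 3-day effect minus the 1-day effect, a test added after these values were seen, was 1.91 (SE 0.48, adjusted p = 0.117 by limma, with 0.592% of all probe sets passing). The 1-day call was lost without vehicle rat 22, 23 or 24 or Wy-14643 rat 04 or 05, with a change of -0.65 without rat 04. It was kept without rat 03, at -1.46.

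C3, the hub of all complement branches, was among the 7 brightest probe sets on every array of this study. Its changes at 3 and 7 days were -0.14 and -0.14 after quantile normalisation and passed narrowly (adjusted p = 0.0418 and 0.0347 by limma). With median scaling they were -0.74 and -0.51. Quantile normalisation gives the brightest probe sets nearly the same values on all arrays, as the vehicle levels of 14.15, 14.15 and 14.15 at 3 days show.

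**Figure D3:**
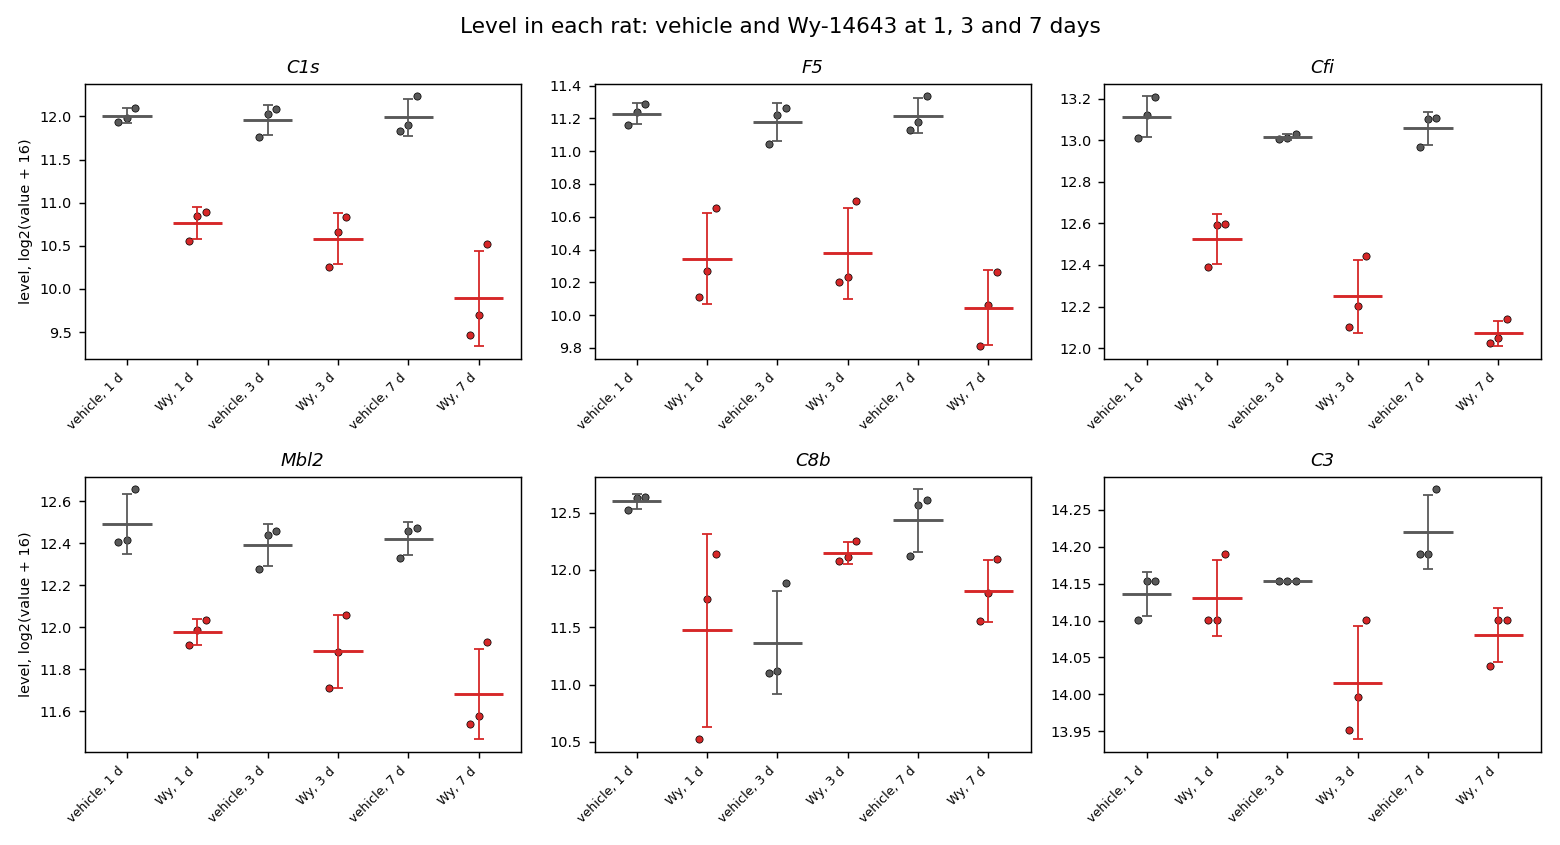
Level of 6 genes in each rat as log2(intensity + 16), with group mean (bar) and SD (whisker), for vehicle and Wy-14643 at 1, 3 and 7 days, 3 rats each; the vertical axes do not start at 0. C1s, F5, Cfi and Mbl2 lie below vehicle in every treated rat, C8b changes order at 3 days, and C3 spans a narrow range.

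Of 34 further complement and coagulation genes measured on this array, 6, 8 and 10 fell and 0, 1 and 1 rose at 1, 3 and 7 days; the gene that rose was Tfpi, an inhibitor of the start of coagulation, by 0.54 and 0.94. Fga and Fgb, chains of fibrinogen, fell at all 3 times, by 0.28 and 0.25 at 1 day. Serpina10, an inhibitor of factor X, fell by 0.53, 0.56 and 0.55. Of the 22 acute phase and IL-6 genes, 7, 8 and 6 fell and none rose. Of all probe sets 5.53%, 5.24% and 6.5% passed as lower at these times. Stat3, the transcription factor behind IL-6 signals, fell by 0.46, 0.46 and 0.45. Hnf4a, the main hepatocyte transcription factor, rose by 0.70 at 3 days and 0.69 at 7 days. Macrophage markers stood at a summed 2644.5 to 3042.5 in treated rats at 7 days against 4331.7 to 7191 in vehicle rats, where 3 of 8 fell (Csf1r, C1qa and Cd14). They stood at 4638 to 5434.5 against 4636 to 5610.9 at 1 day, where none passed. At 3 days their sums also lay below vehicle, at 3937.3 to 5308.7 against 5469.2 to 8623.3. Of the 2 red blood cell markers Hbb fell at 3 and 7 days, by 0.61 and 0.85, and Alas2 at 7 days. Ptprc, of 7 lymphocyte markers, fell by 0.55 and 0.43 at 3 and 7 days. At 7 days no endothelial or stellate cell marker passed, but their sums lay below vehicle, at 1222 to 1508 against 1590.6 to 2246.5 and at 2538.8 to 2742.2 against 3115.3 to 3783.5. Bile duct sums lay above vehicle at 1 and 7 days, at 300.56 to 395.12 against 252.27 to 279.47 and at 318.52 to 529.76 against 253.78 to 287.37, and Epcam rose by 0.91 at 7 days. Cd3d, Cd3g and Cd8a were at 0 in every rat. Summed hepatocyte markers were 70902 to 74079 against 78140 to 82333 at 1 day and 67274 to 76031 against 77966 to 79371 at 3 days. At 7 days they were 66260 to 71518 against 75435 to 78000. The part of these markers in the falls was not tested.

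When only vehicle and treated rats of 1 time were fitted, 2 genes passed at 3 days and 9 at 7 days, and median scaling gave 10 at 1 day. C1s and Cfi passed at all 3 times in every alternative run and without any single rat. Of the 1815 probe sets that passed at 1 day 51.6% were higher, and 67.1% of those that passed with median scaling.

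PFOA and Wy-14643 rats came from different studies, strains and arrays and share no controls. Of the 21 genes read in both, 9 passed with PFOA and 14 with Wy-14643 at 7 days, and 6 passed in both (66.7% of the first and 42.9% of the second): C1s, C4bpa, Cfi, Cpb2, Mbl2 and Serpind1. With Wy-14643 at 1 day 16 passed and 8 passed in both, which is 88.9% of the first and 50.0% of the second. Of all 21 genes, 66.7% passed with Wy-14643 at 7 days and 76.2% at 1 day. The genes that passed with PFOA thus passed at 7 days of Wy-14643 no more often than the 21 genes did. The overlap was not tested. F5 and Serpinf2 passed with Wy-14643 and not with PFOA, where their changes were -0.61 and -1.06. C6 and C8a, which fell with PFOA, are not on the Wy-14643 array.

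The D3T diet lowered 10 of 17 genes and raised none, against 12.6% of all probe sets in either direction and 7.2% as lower. The median was -0.41, against 0.00 over all probe sets, and 11 genes lay lower in every D3T rat than in any control rat, as did 10.6% of all probe sets. Klkb1 stood at 10.56, 10.56, 10.75 and 10.77 on control diet and at 9.37, 9.51, 9.73 and 9.87 on D3T, a change of -1.04 (SE 0.12, adjusted p = 0.00427 by limma, n = 4 and 4). C1s stood at 10.17, 10.20, 10.36 and 10.52 against 9.29, 9.32, 9.57 and 9.57 and fell by 0.88 (SE 0.11). Both genes were lower in every D3T rat than in any control rat.

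Mbl1 stood at 9.60, 9.70, 9.75 and 9.93 against 8.87, 8.90, 8.92 and 9.15, a change of -0.79 (SE 0.09), but a second Mbl1 probe set changed by -0.18 and did not pass. C4bpb stood at 9.95, 9.99, 10.01 and 10.05 against 9.21, 9.21, 9.26 and 9.35, the tightest separation of these, with a change of -0.74 (SE 0.04, adjusted p = 0.000365 by limma). The other falls were in Serpind1 (0.50), C4bpa (0.50), Proc (0.41), F10 (0.38), Pros1 (0.33) and C8b (0.32). C3 at -0.08, F9 at 0.06, Plg at 0.11 and F2 at -0.33 did not pass. Nor did Masp1 at -0.73, read at levels of 4.50 to 6.26. Mbl2 did not pass either, though it stood at 10.42, 10.50, 10.54 and 10.60 on control diet and at 9.72, 9.84, 10.11 and 10.31 on D3T, with no overlap. Of the 5 vitamin K dependent genes 3 fell, and of the 2 terminal complement genes 1.

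**Figure D4:**
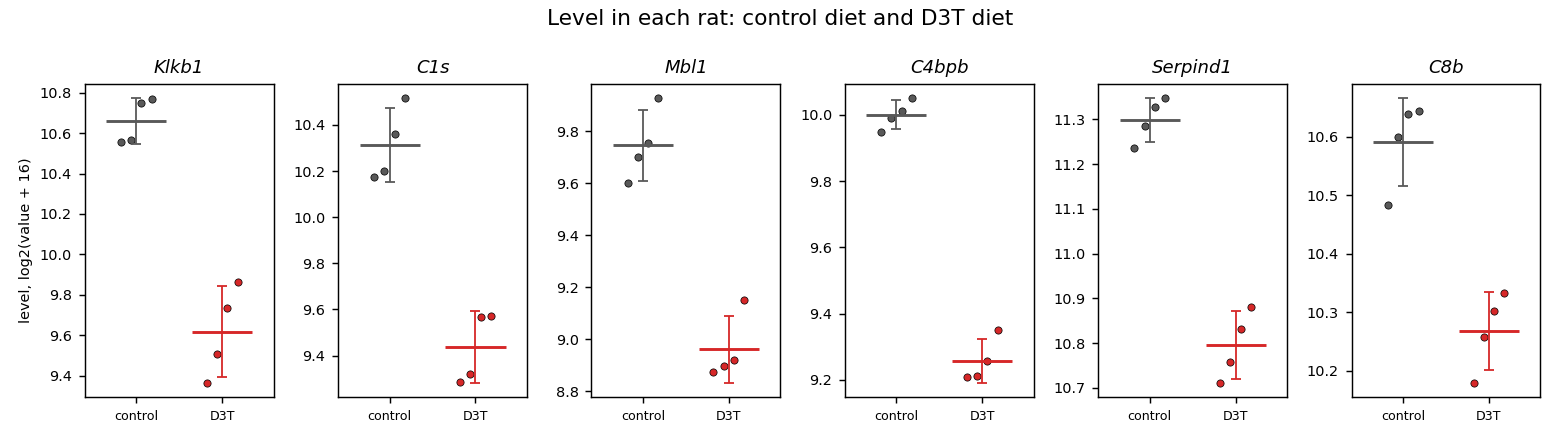
Level of 6 genes in each rat as log2(intensity + 16), with group mean (bar) and SD (whisker), on control diet and D3T diet, 4 rats each; the vertical axes do not start at 0. In each of the 6 genes all 4 D3T rats lie below all 4 control rats.

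Among 28 further complement and coagulation genes measured in the D3T study 9 fell, such as Cfd (factor D) by 1.85, Fgb by 0.62 and C1r by 0.56, and A2m rose by 1.28. Of 22 acute phase and IL-6 genes 11 fell, with Il6r, the IL-6 receptor, lowest at -1.68, while A2m and Orm1 rose. Of all probe sets 12.6% passed in either direction, and 7.2% as lower. Nqo1, the standard NRF2 target, rose by 2.72. Summed macrophage markers were 1278.4 to 1622.9 on D3T against 1577.8 to 1948.9, with Clec4f and C1qb lower of 6 measured, and summed hepatocyte markers 33999 to 35536 against 37135 to 37959, with Apoa1 and Serpina1 lower of 7. Stellate cell markers stood at 384.25 to 566.74 against 733.41 to 910.8, with Col1a1 lower by 1.68 of 6 measured. Red blood cell markers stood at 2174.3 to 2758.7 against 3140.5 to 4451, with Hbb lower. Of 6 lymphocyte markers Ptprc fell by 0.97 and Cd79b rose by 0.51, with overlapping sums, and no endothelial or bile duct marker passed. Des and Cd3d were at 0 in every rat. The part of these markers was not tested. With median scaling 5 of the 17 genes passed, C1s, C4bpb, Klkb1, Mbl1 and Pros1. The others did not, with changes of -0.16 for Serpind1, -0.45 for C4bpa, -0.25 for Proc, -0.09 for F10 and -0.12 for C8b. Klkb1 and C4bpb passed in every alternative run. The Proc call was lost without D3T rat 1, 3 or 4 or without any 1 of the 4 control rats.

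Phenobarbital and PCN left most of the 17 genes without a call. In males, phenobarbital gave no call at 6 h (0.732% of all probe sets passed, 3 genes of 17 and 775 of 8740 probe sets with unadjusted p under 0.05). It gave 1 at 24 h (2.3%) and 2 after 5 doses (4.87%). C4bpb stood at 10.34, 10.36, 10.38, 10.45 and 10.53 in vehicle males at 24 h and at 9.81, 9.93, 9.98, 10.06 and 10.12 with phenobarbital, with no overlap, a fall of 0.43 (SE 0.12, adjusted p = 0.0279 by limma, n = 5 and 5). After 5 doses it stood at 10.09, 10.18, 10.43, 10.45 and 10.53 against 9.09, 9.62, 9.68, 9.71 and 10.28, a fall of 0.66 (SE 0.12, adjusted p = 4.43e-05) with 1 treated rat among the vehicle levels. Pros1, whose product is carried in plasma by the chain that C4bpb encodes, moved the other way after 5 doses, with 9.49, 9.50, 9.66, 9.69 and 10.01 in vehicle and 9.96, 9.97, 9.97, 10.19 and 10.27 in phenobarbital males, a rise of 0.41 (SE 0.10, adjusted p = 0.00851). PCN in males gave no call at 6 h (1.88% of all probe sets), at 24 h (0.572%) or after 5 doses (4.7%) in limma, with 0, 0 and 7 genes at an unadjusted p under 0.05. Of all 8740 probe sets, 976, 686 and 1482 were under that value. Neither 5-dose call passed when only the phenobarbital and vehicle groups were fitted. The 24 h C4bpb call was lost without vehicle rat 1006 or 1009, without phenobarbital rat 4008, 4009 or 4010, and with median scaling.

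In females, phenobarbital gave no call at 6 h (2.61%, 3 genes and 940 of 8740 probe sets with unadjusted p under 0.05), 5 falls at 24 h (4.07% in either direction, 1.75% as lower) and 1 rise after 5 doses (2.49%). At 24 h C9 stood at 10.97, 11.0006, 11.0006, 11.17 and 11.22 in vehicle and 9.89, 10.28, 10.31, 10.75 and 10.95 in treated females and fell by 0.64 (SE 0.14, adjusted p = 0.00221 by limma, n = 5 and 5). C1s stood at 10.88, 10.95, 11.03, 11.04 and 11.08 against 9.81, 10.51, 10.52, 10.64 and 10.74 and fell by 0.55 (SE 0.11). C4bpa fell by 0.52 and C8b by 0.50. C4bpa stood at 10.31, 10.34, 10.43, 10.49 and 10.53 against 9.39, 9.50, 10.00, 10.21 and 10.40, with overlap, and C8b at 10.45, 10.61, 10.61, 10.65 and 10.86 against 9.93, 9.98, 10.14, 10.32 and 10.33, without. Proc fell by 0.26. After 5 doses Pros1 stood at 9.03, 9.28, 9.35, 9.49 and 9.65 in vehicle and at 9.51, 9.60, 9.61, 9.92 and 9.97 in treated females, a rise of 0.36 (SE 0.10). That rise was not called without vehicle rat 1512, 1513 or 1514 or phenobarbital rat 4512 or 4514. The count of 5 at 24 h was 3 without vehicle rat 1507 or phenobarbital rat 4506 or 4509, 1 with median scaling and 0 when only both groups were fitted. C1s did not pass with median scaling or with rat 1003 included. In these females C1r also fell, 1 of 28 further complement and coagulation genes measured. This count is near the share of all probe sets, 4.07% in either direction. None of 6 macrophage markers passed, with sums of 1097.6 to 1895.3 against 1653.4 to 2445.8 in vehicle rats. Summed hepatocyte markers were 38488 to 40861 against 40968 to 41832, without overlap, and the sums of the other cell types overlapped. The part of these markers in the falls was not tested.

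PCN in females gave 4 falls and 1 rise at 6 h (2.23% in either direction, 0.732% as lower), 1 fall at 24 h (3.68%) and 2 rises with 1 fall after 5 doses (8.46%). At 6 h C1s stood at 10.60, 10.70, 10.73, 10.83 and 10.91 in vehicle and 9.90, 10.13, 10.28, 10.28 and 10.37 in PCN females and fell by 0.57 (SE 0.11, adjusted p = 0.000706 by limma, n = 5 and 5). C4bpa fell by 0.56, C9 by 0.55 and C4bpb by 0.47. Mbl2 stood at 10.30, 10.31, 10.33, 10.48 and 10.61 in vehicle and 10.86, 10.89, 11.06, 11.13 and 11.16 in PCN females, a rise of 0.61 (SE 0.12, adjusted p = 0.000689). The vehicle females at 6 h were themselves low in Mbl2, with a mean of 10.41 (SD 0.14, n = 5) against 11.12 (SD 0.14) at 24 h and 10.996 (SD 0.26) after 5 doses. C8b was the gene that fell at 24 h, by 0.49, with 10.45, 10.61, 10.61, 10.65 and 10.86 in vehicle and 9.91, 9.99, 10.09, 10.25 and 10.50 in PCN females. The count of 5 at 6 h was 3 without vehicle rat 1502 or 1505 or PCN rat 5505, and 2 with median scaling, where Mbl2 did not pass. C1s did not pass with rat 1003 included. The C8b call at 24 h was lost without vehicle rat 1506, 1507 or 1508 or PCN rat 5506, 5509 or 5510.

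After 5 doses of PCN in females Pros1 stood at 9.69, 9.81, 9.96, 10.08 and 10.16 against the vehicle levels given for phenobarbital, with no overlap, and rose by 0.58 (SE 0.10, adjusted p = 1.97e-05 by limma). This rise passed in every alternative run and without any single rat. Proc stood at 10.23, 10.26, 10.29, 10.44 and 10.56 in vehicle and 10.55, 10.66, 10.68, 10.68 and 10.77 in PCN females and rose by 0.32 (SE 0.07). F10 fell by 0.41, from 11.12, 11.26, 11.37, 11.66 and 11.66 to 10.76, 10.96, 10.97, 10.98 and 11.36. Proteins C and S are the natural brake on the clotting cofactors, and factor X is the protease on which both clotting branches meet. The F10 call was lost without vehicle rat 1512 or 1515 or PCN rat 5514 or 5515, and both F10 and Proc missed the threshold with median scaling. Fga and Fgb fell in the same rats. The phenobarbital and PCN comparisons share their vehicle rats.

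**Figure D5:**
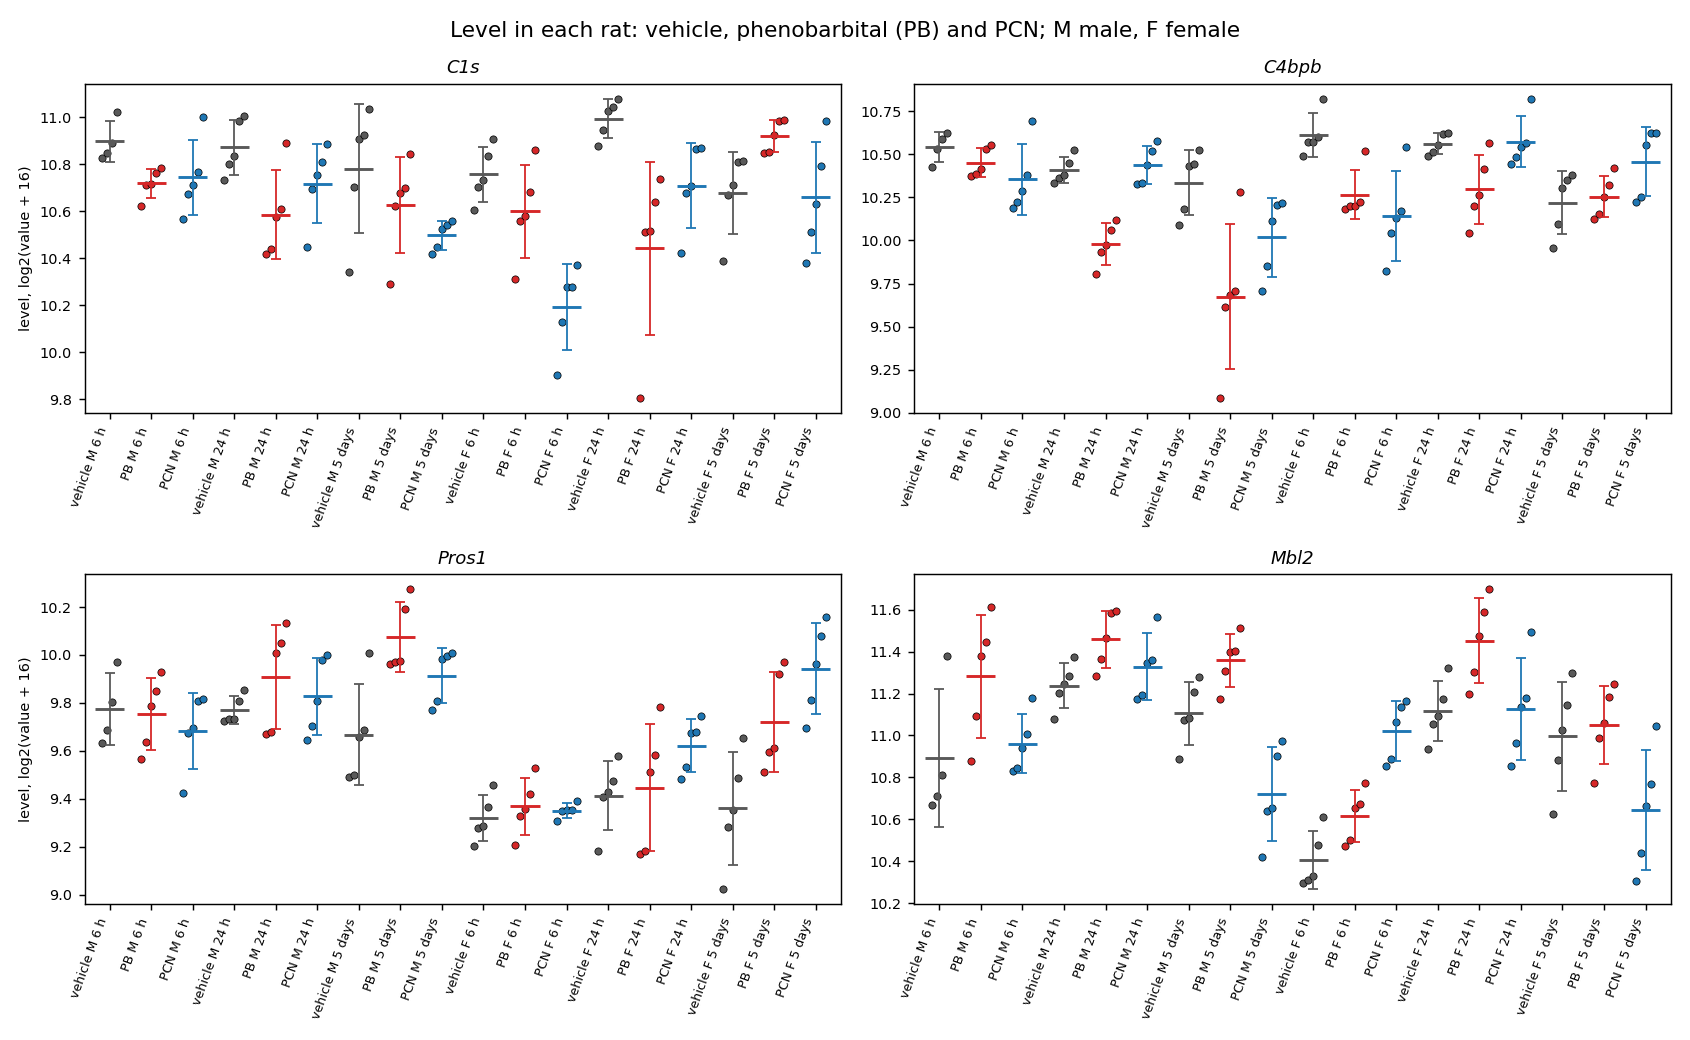
Level of C1s, C4bpb, Pros1 and Mbl2 in each rat as log2(intensity + 16), with group mean (bar) and SD (whisker), for vehicle, phenobarbital (PB) and PCN in males (M) and females (F) at 6 h, 24 h and after 5 daily doses, 5 rats per group and 4 in vehicle males at 6 h; the vertical axes do not start at 0. The Pros1 means of vehicle females lie below those of vehicle males at each time, and Pros1 stands higher than vehicle in females after 5 doses of either compound.

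At 100 mg/kg of both compounds for 5 days, phenobarbital was set against PCN within each sex, and adjusted p-values run over all probe sets of each of the 2 comparisons. In males Mbl2 was higher with phenobarbital by 0.64 (SE 0.12; 3.09% of all probe sets passed), with 11.17, 11.31, 11.40, 11.40 and 11.51 against 10.42, 10.64, 10.66, 10.90 and 10.98. In females F10 was higher with phenobarbital by 0.49, Mbl2 higher by 0.41 and Proc lower by 0.26 (6.88% of all probe sets). The other 16 genes in males and 14 in females did not pass. In females the Mbl2 difference was not called without phenobarbital rat 4512, 4514 or 4515 or PCN rat 5514 or 5515, and none of the 3 passed with median scaling. The male Mbl2 difference did not pass when only both groups were fitted. With phenobarbital rat 4013 or PCN rat 5015 left out, 2 genes passed in males.

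Vehicle females differed from vehicle males in 6 of 17 genes over the 3 times (15.3% of all probe sets in either direction, 6.86% as lower). Pros1 was lower in females by 0.37 (SE 0.06), Proc by 0.29 (SE 0.04), F9 by 0.41 and Mbl2 by 0.24, while Serpind1 was higher by 0.22 and F2 by 0.17. With rat 1003 included neither F9 nor F2 passed, at 0.0028 and 0.67, and with median scaling neither F9 nor Mbl2 did, at -0.36 and -0.22. Pros1 had group means of 9.77 (SD 0.15, n = 4), 9.77 (SD 0.06, n = 5) and 9.67 (SD 0.21, n = 5) in males at 6 h, 24 h and after 5 doses. In females they were 9.32 (SD 0.10), 9.41 (SD 0.15) and 9.36 (SD 0.23), n = 5 each. The sex effect on the response was tested for each compound and time, and no gene of the 17 passed in limma. The shares of all probe sets that did were 1.02%, 0.0114% and 0.103% for phenobarbital at 6 h, 24 h and 5 days, and 0.0458%, 0.0229% and 0.606% for PCN. The numbers of genes with an unadjusted p under 0.05 were 0, 1 and 3, and 3, 2 and 3. Of all 8740 probe sets, 816, 395 and 634, and 524, 825 and 833 were under that value. The nearest to a call was C4bpb under phenobarbital at 5 days, where the female effect minus the male effect was 0.70 (SE 0.17, adjusted p = 0.0637 by limma). It passed without vehicle male 1011 or 1012, vehicle female 1511 or phenobarbital male 4013. Calls seen in 1 sex are therefore not shown to differ between the sexes.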

How the data were processed

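Liver RNA of 128 rats was read on 1-colour arrays. Each deposited value is the intensity of 1 probe set; how the authors made and scaled it is not given in the sources used here. Negative values were set to 0, 16 was added and log2 taken, control probe sets were left out, and arrays were quantile normalised within a study where their medians spanned over 0.5. The model, with 1 mean per group and a separate fit for every study, used limma 3.58.1 (R 4.3.3), and p-values were adjusted by Benjamini-Hochberg over 8740, 15866 or 31042 probe sets. A gene was read from its brightest probe set on average. The fit was tested on simulated data. Members and gene lists were chosen with earlier results of these data known. Any member that passed may be named, with values per rat for up to 4 of the largest changes per comparison, and up to 3 genes per companion list. Rats of a group are separate samples per the labels, and their number limits the precision. Alternatives changed the added value, scaling, filter, groups fitted, probe set rule and rat 1003, and left out each rat in turn. The labels number the D3T rats in both diets, but same-numbered rats did not deviate together (correlations 0.266, -0.0793, -0.0942 and -0.205), so no pairing was used.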

Additional observations from a re-analysis of the deposited data

Results flagged for a closer look

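Of 54 pairs of a gene and a group looked at for a rat that stands apart, 2 held one, and chance alone marks about 1 in 20 such groups. C1s in phenobarbital females at 24 h was lowest in rat 4506 at 9.8052, and the next rat stood at 10.5108. Proc on the control diet of the D3T study was highest in rat 4 at 10.6708, with the next rat at 10.4938. C1s passed without rat 4506, while the Proc call was lost without control rat 4, as it was without most other rats of that study.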

How the results depend on the processing

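All 19 counts against controls were recomputed under each alternative, as were the contrasts between compounds, sexes and times. With median scaling the counts of genes that passed were 0 for phenobarbital in males at 24 h, 1 in females at 24 h, 1, 2, 0 and 1 for PCN in males after 5 doses and in females at 6 h, 24 h and after 5 doses, 0 for phenobarbital against PCN in females, 5 for D3T, 8 for PFOA and 10 for Wy-14643 at 1 day. Fitting only the groups compared gave 0 for phenobarbital in males after 5 doses, 0 and 0 in females at 24 h and after 5 doses, 2 and 0 for PCN in females at 6 and 24 h, 0 and 1 for phenobarbital against PCN in males and females, 7 for PFOA, and 2 and 9 for Wy-14643 at 3 and 7 days. Including rat 1003 gave 1 for phenobarbital and 2 for PCN in males at 6 h, and a reversed F9 difference between vehicle females and males of 0.0028. It also ended the C1s calls in phenobarbital females at 24 h and in PCN females at 6 h. Leaving out the dimmest probe sets gave 1 for PCN in males after 5 doses. Averaging probe sets gave 1 there, 0 for PCN in females at 24 h and 2 for phenobarbital against PCN in males. The replicate block for D3T gave 5 genes and 346 probe sets against 10 and 1097 without it; 1 of 4 rats correlated best with its own number. Without each rat in turn the counts ran from 0 to 1, 0 to 1 and 2 to 2 for phenobarbital in males, 0 to 1, 3 to 6 and 0 to 1 in females, 0 to 0, 0 to 0 and 0 to 1 for PCN in males, and 3 to 5, 0 to 1 and 2 to 4 in females. They ran from 8 to 10 for D3T, 5 to 10 for PFOA, 0 to 0 for PFOS at both doses, 11 to 13, 8 to 13 and 12 to 16 for Wy-14643, 5 to 7 for vehicle sexes, 1 to 2 and 2 to 3 for phenobarbital against PCN, and 0 to 1 for the sex difference of phenobarbital after 5 doses and for 7 days against 1 day of Wy-14643. The cause of these shifts was not tested. In the 3-week PFOS study 17 probe sets passed with 1 added in place of 16, and 25 without the dimmest. The share of higher calls rose with median scaling from 84.4% to 96.0% and 57.0% to 73.3% and 58.3% to 69.5% for phenobarbital in males at 6 h and in females at 24 h and 5 days, and from 70.1% to 82.7%, 82.0% to 94.0% and 61.3% to 74.1% for PCN in males.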
